A study of Mus musculus with 2 samples.

Results

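Osteoblast precursors of the regenerating mouse digit tip were taken as droplet barcodes that combined fibrillar collagen RNA with RNA of C1qtnf3, Adamts18, Panx3, Ifitm5 and Sp7, and that had little osteocalcin and cartilage collagen RNA. In all there were 676 members among 11023 barcodes. The single library of the Lmx1b line held 399 of them among 5991 barcodes, and the library of the Pdgfra line held 277 among 5032. Barcodes entered the choice if 500 or more genes were detected and mitochondrial genes gave no more than 10% of the UMIs (unique molecular identifiers, each standing for 1 captured RNA molecule). Levels in a barcode were expressed as CP10k, its UMIs per 10000. A member had at least 30 CP10k of Col1a1, Col1a2 and Col3a1 together, at least 6 CP10k of the 5 selecting genes together, under 30 CP10k of the osteocalcin genes Bglap and Bglap2 together, and under 50 CP10k of Col2a1, Col9a1, Col9a2 and Col9a3 together. The members were chosen by their RNA, so the levels of all genes in them are given as descriptions without a test.

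The tissue came from adult mice aged 10 to 12 weeks, 14 days after amputation of the digit tip. Both lines carried R26-LSL-TdT, a Rosa26 reporter that makes the red fluorescent protein tdTomato after Cre recombination. The drivers were PdgfraCreERT, active on tamoxifen in cells that use the promoter of the growth factor receptor gene Pdgfra, and Lmx1bCreERT2, active in cells that use that of the dorsal limb transcription factor gene Lmx1b. Every mouse received 3 mg of tamoxifen daily for 4 days and was amputated 10 days later. No uninjured digit was analysed here, and each line was represented by 1 library, with the number of mice not given in the sources used here. The line, the animals and the library preparation cannot be told apart, and no p-value was computed. Intervals in brackets cover counting error at 95% and leave out the spread between cells and between mice.

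Osteoblasts arise from mesenchymal progenitors that first switch on the transcription factor Runx2 and then Sp7 (osterix), lay down a matrix of type I collagen, and finally mineralise it while making osteocalcin. The digit tip of the mouse regrows its terminal bone after distal amputation, and this new bone forms largely by direct ossification within a blastema of fibroblast-like cells. Among the selecting genes, C1qtnf3 encodes a secreted protein of the C1q and TNF family, Adamts18 an extracellular metalloprotease, Panx3 a membrane channel of developing bone and cartilage, and Ifitm5 a small membrane protein of bone-forming cells in which mutations cause a brittle bone disease.

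The selecting genes lie at separate places in the genome, apart from a shared chromosome for C1qtnf3 and Sp7. On mouse build GRCm38 (GENCODE vM21 annotation) C1qtnf3 spans chr15:10952332-10980150 on the plus strand and Sp7 chr15:102356606-102367182 on the minus strand. Adamts18 spans chr8:113697126-113848738, Panx3 chr9:37659902-37669235 and Ifitm5 chr7:140948958-140950291, all on the minus strand. The promoters of C1qtnf3, Adamts18 and Ifitm5 are printed as those of the selecting genes that were found in the promoter table used here. Each run holds 250 bases before and 50 after the RefSeq start site on GRCm38.p6, read 5′ to 3′ along the gene. Capitals mark the RUNX core TGTGGT or its reverse complement ACCACA, both strands having been searched.
C1qtnf3: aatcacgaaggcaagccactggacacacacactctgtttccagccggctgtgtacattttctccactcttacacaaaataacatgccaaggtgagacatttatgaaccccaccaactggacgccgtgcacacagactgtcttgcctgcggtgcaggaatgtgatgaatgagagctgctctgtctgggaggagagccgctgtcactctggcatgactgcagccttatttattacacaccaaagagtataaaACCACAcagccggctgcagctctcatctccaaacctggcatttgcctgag
Adamts18: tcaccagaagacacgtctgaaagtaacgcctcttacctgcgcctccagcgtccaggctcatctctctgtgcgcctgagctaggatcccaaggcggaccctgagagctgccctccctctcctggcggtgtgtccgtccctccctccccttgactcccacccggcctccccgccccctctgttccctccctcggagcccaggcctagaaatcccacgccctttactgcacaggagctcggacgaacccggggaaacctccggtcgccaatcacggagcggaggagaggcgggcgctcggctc
Ifitm5: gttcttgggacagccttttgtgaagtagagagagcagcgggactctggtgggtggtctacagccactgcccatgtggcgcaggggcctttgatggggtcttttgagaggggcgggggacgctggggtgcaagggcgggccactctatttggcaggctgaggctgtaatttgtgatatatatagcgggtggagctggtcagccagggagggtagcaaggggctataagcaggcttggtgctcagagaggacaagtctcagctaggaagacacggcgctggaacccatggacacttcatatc
The C1qtnf3 window (chr15:10952082-10952381) held 1 such match, on its reverse strand, just at the start site. The Adamts18 window (chr8:113848790-113849089) and the Ifitm5 window (chr7:140950194-140950493) held 0 matches. The core was present in 5506 of 32851 RefSeq promoters of the same length, or 16.8%, and a match to so short a run is only a description of its letters.

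Among barcodes past the collagen threshold, members made up 20.8% in the Lmx1b line (399 of 1921, 19.0 to 22.7%) and 14.9% in the Pdgfra line (277 of 1856, 13.3 to 16.6%). Depth differed between the libraries. Members had a median of 30871 UMIs in the Lmx1b line and 4713 in the Pdgfra line. In the Lmx1b line 88 members (22.1%) had under 5000 UMIs, and in the Pdgfra line 140 (50.5%). These shallow members supplied 1.21% and 3.32% of the members' UMIs, so the summed levels below rest almost wholly on the deeper ones. Among barcodes with at least 5000 UMIs the shares were 22.0% (311 of 1414) and 14.1% (137 of 975), and the deep members had closer median depths of 38511 and 43629 UMIs. In a barcode of under 1667 UMIs a single selecting UMI meets the threshold, and 38 members of the Lmx1b line (9.52%) and 68 of the Pdgfra line (24.5%) rested on 1 UMI. The libraries shared 10 barcode sequences in all, 1 among kept barcodes and 0 among members.

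**Figure D1:**
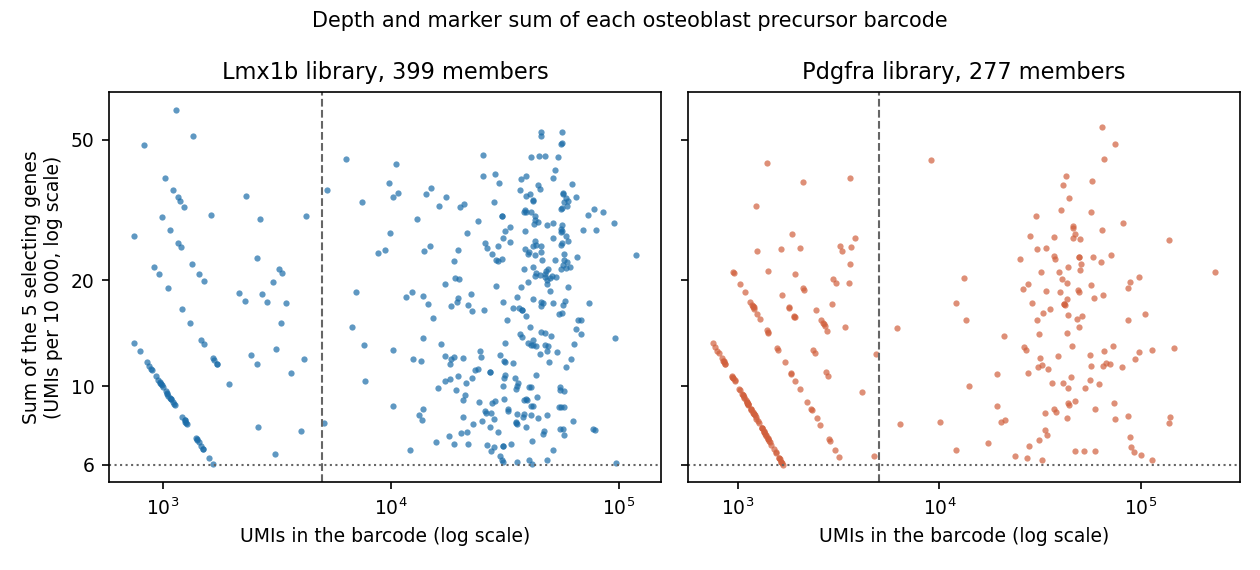
Each point is 1 member, with its total UMIs (log axis) against the summed level of the 5 selecting genes in CP10k, in the Lmx1b and the Pdgfra line. The dashed line stands at 5000 UMIs and the dotted line at the threshold of 6 CP10k; 88 members of the Lmx1b line and 140 of the Pdgfra line lie left of the dashed line.

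The summed level of the selecting genes was spread widely above the threshold, with quartiles of 9.72, 16.1 and 25.5 CP10k in the Lmx1b line and 8.56, 12.3 and 18.8 CP10k in the Pdgfra line. There was no gap at the threshold. Just inside it, at 6 to 7 CP10k, lay 27 and 30 barcodes, and just outside it, at 5 to 6 CP10k, 38 and 33 in the Lmx1b and Pdgfra libraries. Ibsp, which encodes bone sialoprotein, stood at 6458 CPM (UMIs summed over barcodes and divided by their total, as CPM is usually scaled) just inside and 8197 just outside in the Lmx1b line, and at 14749 and 8952 CPM in the Pdgfra line. The members are therefore a range of a continuous score and not a separated population.

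C1qtnf3 was the most abundant selecting gene in counts of 3' ends, which do not grow with transcript length. In the Lmx1b line it stood at 794 CPM in members and 130 CPM in other collagen barcodes, and in the Pdgfra line at 771 and 124 CPM. Ifitm5 followed at 658 against 111 CPM and 412 against 45.1 CPM. Sp7 stood at 231 and 194 CPM in members of the Lmx1b and Pdgfra libraries, Panx3 at 218 and 202 CPM, and Adamts18 at 96.5 and 84.2 CPM. C1qtnf3 and Ifitm5 led in both libraries and Adamts18 was lowest in both. C1qtnf3 was detected in 81.2% of members in the Lmx1b line and 72.9% in the Pdgfra line. It was detected in 7.77% and 7.38% of endothelial barcodes, which should lack it. These were kept barcodes with 3 or more endothelial markers and without mural markers at that number. Members and Bglap-high osteoblasts (defined below) were left out of them. Barcodes with endothelial markers that met the member rule counted as members, so low detection of the selecting genes here is partly set by the rule. Adamts18 was detected in 53.9% and 42.2% of members and in 1.61% and 0.868% of endothelial barcodes. The endothelial barcodes had medians of 11980 UMIs in the Lmx1b line, below those of members, and 7381 UMIs in the Pdgfra line, above them.

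How far each selecting gene followed the other 4 was described by choosing members again without it. Chosen without Adamts18, members still had 13.6-fold (11.7 to 15.8) the Adamts18 level of the remaining collagen barcodes in the Lmx1b line and 8.34-fold (7.17 to 9.71) in the Pdgfra line. The left-out ratio of Ifitm5 was 5.05-fold (4.86 to 5.26) and 6.88-fold (6.46 to 7.34). For Sp7 the ratio was 2.75 and 3.60, for Panx3 2.49 and 2.57, and for C1qtnf3 2.50 and 2.65. The ratios do not rank the genes, because barcodes that only the left-out gene brought in fall on the other side: without C1qtnf3 the choice kept 246 of 399 members of the Lmx1b line and 156 of 277 of the Pdgfra line, and without Adamts18 it kept 396 and 270.

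Where the selecting genes were highest differed from gene to gene, in a comparison with collagen barcodes that had cartilage collagens at 50 CP10k or more (137 and 97 barcodes) and with those that had osteocalcin genes at 30 CP10k or more (the Bglap-high osteoblasts, 157 and 26 barcodes). Adamts18 was highest in the members, with 13.0 and 40.3 CPM in Bglap-high osteoblasts and 16.1 and 29.4 CPM in cartilage-gene barcodes. C1qtnf3 was also highest in members, but cartilage-gene barcodes came near at 509 and 614 CPM, while Bglap-high osteoblasts had 29.8 and 21.0 CPM. Panx3 was higher in cartilage-gene barcodes than in members, at 433 and 475 CPM. Ifitm5 and Sp7 were shared with Bglap-high osteoblasts, which had 563 and 432 CPM of Ifitm5 and 205 and 173 CPM of Sp7. The members were chosen by the sum of these genes, and the limits on osteocalcin and cartilage collagens were set by the rule, so these levels describe the outcome of the choice.

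**Figure D2:**
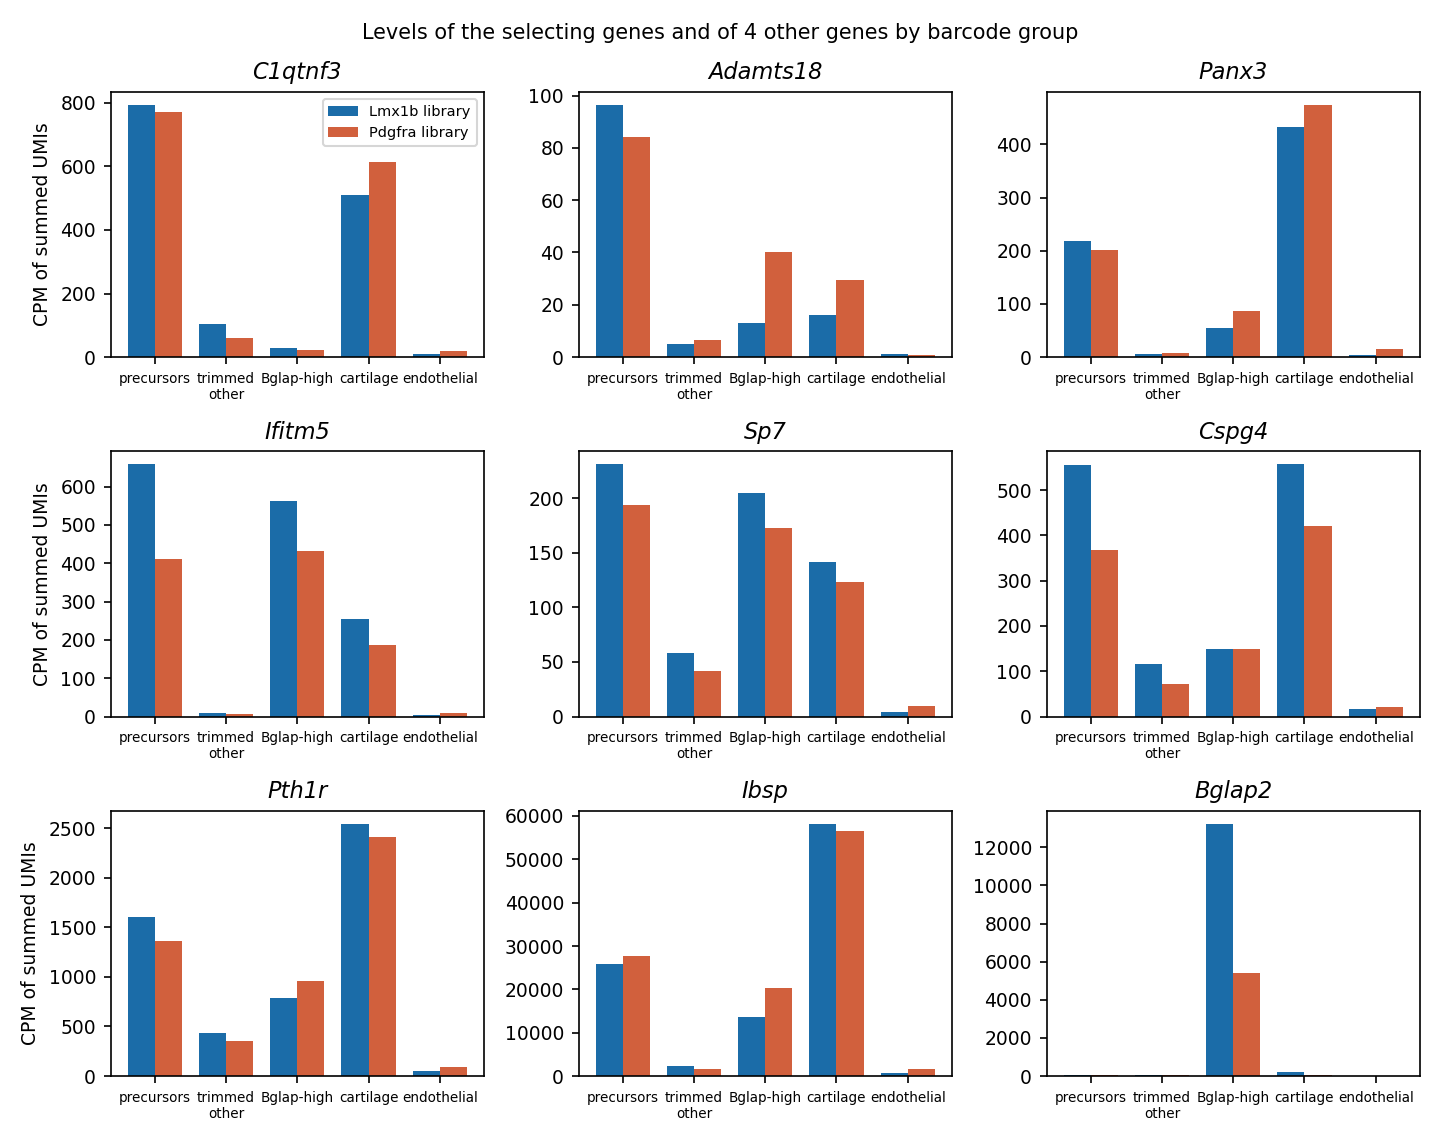
Bars give the level in CPM of summed UMIs for the 5 selecting genes and for Cspg4, Pth1r, Ibsp and Bglap2 in members, a trimmed set of other collagen barcodes (without osteocalcin-rich, cartilage-gene or other-type barcodes), Bglap-high osteoblasts, cartilage-gene barcodes and endothelial barcodes of each library. Adamts18 and C1qtnf3 are highest in members, and Panx3, Pth1r and Ibsp in cartilage-gene barcodes.

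Genes of the bone lineage outside the rule were used to check the name. Ibsp reached 25834 CPM in members of the Lmx1b line and 27715 CPM in the Pdgfra line. Alpl, the alkaline phosphatase that frees phosphate for mineral, stood at 1503 and 1429 CPM, and Pth1r, the parathyroid hormone receptor, at 1605 and 1363 CPM. Runx2 was present at 175 and 159 CPM, close to its level of 124 and 123 CPM in other collagen barcodes. Spp1 (osteopontin) stood at 8850 and 9954 CPM, below the 25472 and 37430 CPM of Bglap-high osteoblasts. Bglap2, limited by the rule, stood at 36.8 and 51.0 CPM in members and 13246 and 5413 CPM in Bglap-high osteoblasts. These levels go with the name of bone-forming cells with little osteocalcin, with the reservation that Ibsp, Pth1r and Alpl were still higher in cartilage-gene barcodes, at 58227 and 56415 CPM for Ibsp, 2545 and 2411 CPM for Pth1r and 2685 and 2219 CPM for Alpl. Sox9, the cartilage transcription factor, stood at 140.2 and 138 CPM in members, above the 27.1 and 48.4 CPM of Bglap-high osteoblasts and below the 266 and 331 CPM of cartilage-gene barcodes.

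Mural and endothelial markers were scarcer in members than in the collagen barcodes they were set against. A barcode counted as carrying another type when at least 3 of that type's markers were detected, together at 5 CP10k or more. Such barcodes made up 13.8% of members in the Lmx1b line (55) and 25.6% in the Pdgfra line (71). Pericyte and smooth muscle markers were carried by 22 members (5.51%) and 30 members (10.8%), against 31.3% and 25.7% of other collagen barcodes. The summed level of that list was 617 against 5343 CPM in the Lmx1b line and 899 against 4372 CPM in the Pdgfra line. Endothelial markers were carried by 12 members (3.01%) and 26 members (9.39%), with summed levels of 93.0 against 257 CPM and 211 against 486 CPM. Macrophage markers were carried by 0 of 399 members of the Lmx1b line, which allows a share of up to 0.752% by the limit of 3 counts and 0.920% by the Clopper-Pearson bound, and by 3 of 277 in the Pdgfra line, with summed levels of 25.2 and 133 CPM. In the Pdgfra line the shares, but not the summed levels, of osteoclast and erythroid markers went the other way. Osteoclast markers were carried by 8 members (2.89%, 1.25 to 5.61%) against 1.90% of other collagen barcodes. Erythroid markers were carried by 16 members (5.78%, 3.34 to 9.21%) against 4.24%. Their summed levels were 667 against 720 CPM and 89.9 against 828 CPM. In the Lmx1b line the shares were 1.75% and 0.752% against 2.37% and 1.31%. The defining markers Cd3e and Nkg7 of T and NK cells were at 0 in members of the Lmx1b line. Because mural cells form so large a share of the other collagen barcodes, values are also given against a trimmed comparison of 488 and 633 barcodes, which leaves out Bglap-high osteoblasts, cartilage-gene barcodes and every barcode carrying another type.

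Against all other collagen barcodes, 149 of 9921 measured genes were at least 2-fold higher in members of the Lmx1b line (1.5%) and 151 of 10106 in the Pdgfra line (1.49%). At least 2-fold lower were 1032 genes (10.4%) and 863 genes (8.54%). A gene counted as measured with a mean of 5 CPM over both sides. Log2 differences, and the 2-fold calls made on them, had a pseudocount of 1 CPM added to each side. Ratios printed as fold had no pseudocount. Of genes measured in both libraries, 95 were 2-fold higher in both, which was 64.6% of the Lmx1b and 63.8% of the Pdgfra list, and 659 were 2-fold lower in both (66.8% and 87.2%). Against the trimmed comparison, 296 of 9804 genes (3.02%) and 366 of 9968 genes (3.67%) were 2-fold higher and 912 (9.3%) and 756 (7.58%) lower. Only the comparison was trimmed, and members carrying markers of another type stayed in. In the Pdgfra line 7 of 7 endothelial, 4 of 6 mural and 3 of 5 macrophage markers were 2-fold higher than in the trimmed comparison, and 0 lower. In the Lmx1b line 2 of 7, 1 of 5 and 0 of 2 were higher, and 0, 3 and 1 lower. The part of such members in the counts was not tested. The members were chosen by the RNA of 14 genes in the same barcodes, so the counts only describe the outcome of that choice.

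Besides the selecting genes, the 25 genes furthest above other collagen barcodes in both libraries were led by Mamdc2, Kcnk1 and Slc13a5. Mamdc2, a secreted proteoglycan, stood at 87.0 against 18.3 CPM in the Lmx1b line (4.75-fold, 4.28 to 5.29) and at 56.3 against 9.27 CPM in the Pdgfra line (6.08-fold, 5.15 to 7.18). Slc13a5, the sodium-coupled citrate transporter, stood at 112 against 26.3 CPM and 80.6 against 21.4 CPM. The potassium channel gene Kcnk1 stood at 59.6 against 13.0 CPM and 45.0 against 9.68 CPM. Bglap-high osteoblasts had as much or more of Mamdc2, at 99.4 and 124 CPM, and similar Kcnk1, at 53.9 and 54.8 CPM, and had 69.9 and 58.0 CPM of Slc13a5. The high level of Mamdc2 and Kcnk1 was thus shared with these osteoblasts.

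Smpd3, Sgms2, Creb3l1 and Fkbp11 were among the same 25 genes. Smpd3, a neutral sphingomyelinase needed for normal mineralisation, stood at 397 against 136 CPM in the Lmx1b line (2.92-fold, 2.80 to 3.05) and at 358 against 108 CPM in the Pdgfra line (3.30-fold, 3.12 to 3.48). In the trimmed comparison Smpd3 was at only 10.2 and 15.6 CPM, which puts members 5.16 and 4.43 higher on the log2 scale. Sgms2, a sphingomyelin synthase, stood at 622 against 235 CPM and 500.3 against 176 CPM. Creb3l1, a transcription factor of the collagen secretory pathway, stood at 421 against 157 CPM and 401 against 145 CPM. Its log2 difference from the trimmed comparison was 1.53 in the Lmx1b and 1.48 in the Pdgfra line. The chaperone gene Fkbp11 stood at 251 against 100.3 CPM and 254 against 100.4 CPM. Sgms2 and Smpd3 were no higher in members than in Bglap-high osteoblasts of the Pdgfra line, where Sgms2 stood at 714 CPM and Smpd3 at 634 CPM.

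Fzd9, Tcf7, Vldlr, Sox6, Tmem119 and Gpc1 were also among them. Fzd9, a Wnt receptor, stood at 85.5 against 31.8 CPM in the Lmx1b and 63.2 against 20.0 CPM in the Pdgfra line. Tcf7, a nuclear partner of beta-catenin in Wnt signalling, stood at 64.6 against 18.1 CPM and 55.0 against 18.6 CPM. Vldlr, a lipoprotein and reelin receptor, stood at 176 against 58.2 CPM and 149 against 42.6 CPM, and at 192 and 322 CPM in Bglap-high osteoblasts. Sox6, a partner of Sox9 in cartilage, stood at 53.1 against 20.3 CPM and 56.1 against 21.0 CPM. Tmem119, a membrane protein of osteoblasts, stood at 529 against 202 CPM and 414 against 166 CPM, but was only 0.87 and 0.86 higher on the log2 scale than in the trimmed comparison, short of 2-fold. Gpc1, a heparan sulphate proteoglycan, stood at 852 against 291 CPM and 404 against 162 CPM. All of these genes were at least 2-fold higher in both libraries, and apart from Tmem119 also against the trimmed comparison.

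**Figure D3:**
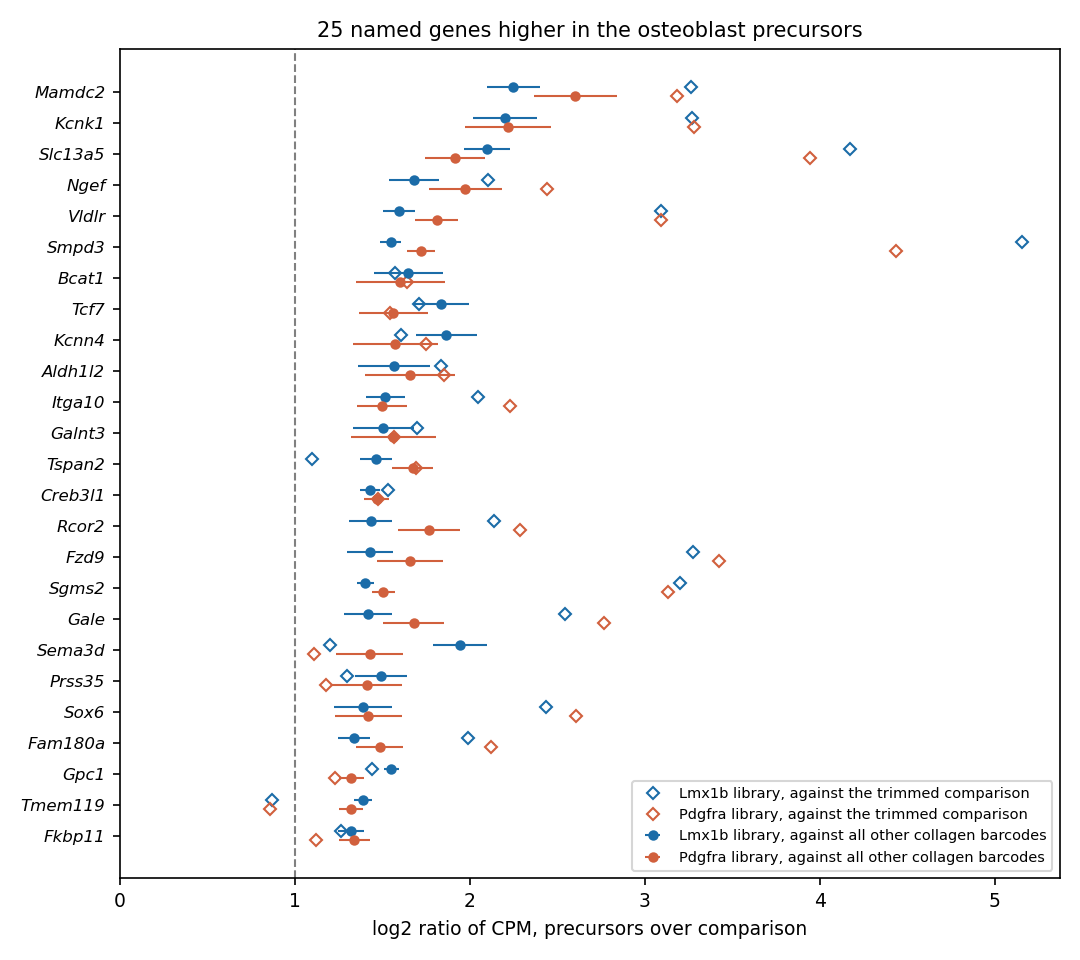
Points give the log2 ratio of members over all other collagen barcodes for the 25 genes furthest higher in both libraries, with 95% counting intervals. Diamonds give the log2 difference from the trimmed comparison, with the pseudocount, which the points leave out. Both libraries share 1 panel and are told apart by colour. Smpd3 has one of the widest gaps between point and diamond, its log2 differences with the pseudocount being 1.54 and 5.16 in the Lmx1b line.

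The 15 genes furthest below other collagen barcodes included markers of mural cells as well as Sfrp2, Cxcl14 and Apoe. The smooth muscle gene Tagln stood at 77.6 against 1162 CPM in the Lmx1b and 92.9 against 679 CPM in the Pdgfra line. The pericyte gene Rgs5 stood at 141 against 2707 CPM and 412 against 2370 CPM. In the trimmed comparison, from which barcodes with mural markers had been removed, Rgs5 was at 38.9 and 63.0 CPM and so lower than in members. The secreted Wnt modulator gene Sfrp2 stood at 8.25 against 476 CPM and 58.9 against 558 CPM, and was higher still in the trimmed comparison, at 1179 and 1284 CPM. The chemokine gene Cxcl14 stood at 6.09 against 625 CPM and 57.8 against 328 CPM, and the lipid carrier gene Apoe at 37.9 against 889 CPM and 256 against 1473 CPM. The shares of barcodes with a UMI differed far less than these sums: Sfrp2 was detected in 12.0% of members and 20.9% of other collagen barcodes in the Lmx1b line and in 22.0% and 28.0% in the Pdgfra line, and Apoe in 53.9% and 68.5% and in 64.3% and 73.1%. The summed differences of Sfrp2 and Apoe were thus larger than those in the raw shares, which depend on depth and were not thinned. Members had a median of 30871 UMIs against 17084 in other collagen barcodes of the Lmx1b line, and 4713 against 6888 in the Pdgfra line. The split between level per barcode and number of barcodes was not tested.

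Gene lists gave the same comparison by role, each list being set beside the median of all measured genes, which was -0.19 in the Lmx1b and -0.22 in the Pdgfra line, and beside the shares of all genes called, 1.5% and 1.49% higher and 10.4% and 8.54% lower. Of 20 collagen processing and secretion genes, 6 were 2-fold higher and 1 lower in the Lmx1b line, and 7 higher and 0 lower in the Pdgfra line, with medians of 0.73 and 0.76 on the log2 scale. Lox, which cross-links collagen, stood at 842 against 372 CPM and 655 against 265 CPM, and the prolyl hydroxylase gene P4ha2 at 263 against 127 CPM and 220 against 80.7 CPM. Of 12 bone matrix genes outside the rule, 2 were higher in the Lmx1b and 3 in the Pdgfra line and 0 lower in either, with medians of 0.37 and 0.63. Of 14 bone lineage transcription factors other than Sp7, 1 was higher and 4 lower in the Lmx1b line, and 2 higher and 4 lower in the Pdgfra line. Twist1, which holds back osteoblast maturation, stood at 103 against 227 CPM and 135 against 317 CPM, and Mef2c, a factor of bone and cartilage maturation, at 565 against 307 CPM and 559 against 307 CPM.

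Signalling lists differed in how far they departed from these shares. Of 14 parathyroid hormone, IGF and FGF genes, 1 was higher in each library, and 9 and 8 were lower. Igfbp5, an IGF-binding protein, stood at 177 against 1955 CPM in the Lmx1b and 577 against 2152 CPM in the Pdgfra line, and the growth factor gene Igf1 at 14.2 against 145 CPM and 25.8 against 60.0 CPM. The skeletal progenitor list had 1 higher and 8 lower of 19 genes in the Lmx1b and 1 higher and 7 lower in the Pdgfra line. Cxcl12, a chemokine of marrow and periosteal stroma, stood at 22.3 against 476 CPM and 47.7 against 227 CPM. In the hedgehog list of 9 genes, 1 was higher and 1 lower in each library, the higher one being the receptor and target gene Ptch1 at 190 against 88.0 CPM and 150 against 72.2 CPM. The BMP list had 0 higher and 6 lower genes of 21 in the Lmx1b line and 0 higher and 3 lower in the Pdgfra line. With so few genes, the hedgehog list and the BMP list of the Pdgfra line lay near the share of all genes called lower. In the list of Wnt signalling in bone, 2 of 25 genes were higher and 6 lower in the Lmx1b line, and 2 of 24 higher and 8 lower in the Pdgfra line, with medians of -0.37 and -0.30. Genes induced by tissue dissociation were also low, 0 being higher and 10 of 12 lower in each library, with Fos at 169 against 556 CPM and 304 against 978 CPM. Whether handling contributed to the differences in other genes was not tested.

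The chondrogenic list depended on which barcodes the members were set against. Leaving out the cartilage collagens named in the rule, 3 of 10 genes were higher and 3 lower in the Lmx1b line against all other collagen barcodes, which hold the cartilage-gene barcodes, and 2 were higher and 2 lower in the Pdgfra line. Against the trimmed comparison, 7 of 9 genes were higher and 0 lower in the Lmx1b line and 8 of 10 higher and 0 lower in the Pdgfra line, with medians of 1.79 and 1.56. Acan, the large cartilage proteoglycan, stood at 1717 CPM in members and 527 in the trimmed comparison of the Lmx1b line, and at 1501 and 340 CPM in the Pdgfra line. Comp, a cartilage and tendon matrix protein, stood at 3827 against 768 CPM and 3207 against 494 CPM. Members thus carried more RNA of several cartilage genes than other fibroblast-like barcodes, although the rule limited their cartilage collagens. In the same trimmed comparison, nail mesenchyme genes lay the other way, with 0 higher and 8 of 10 lower in the Lmx1b line and 0 higher and 9 of 11 lower in the Pdgfra line.

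**Figure D4:**
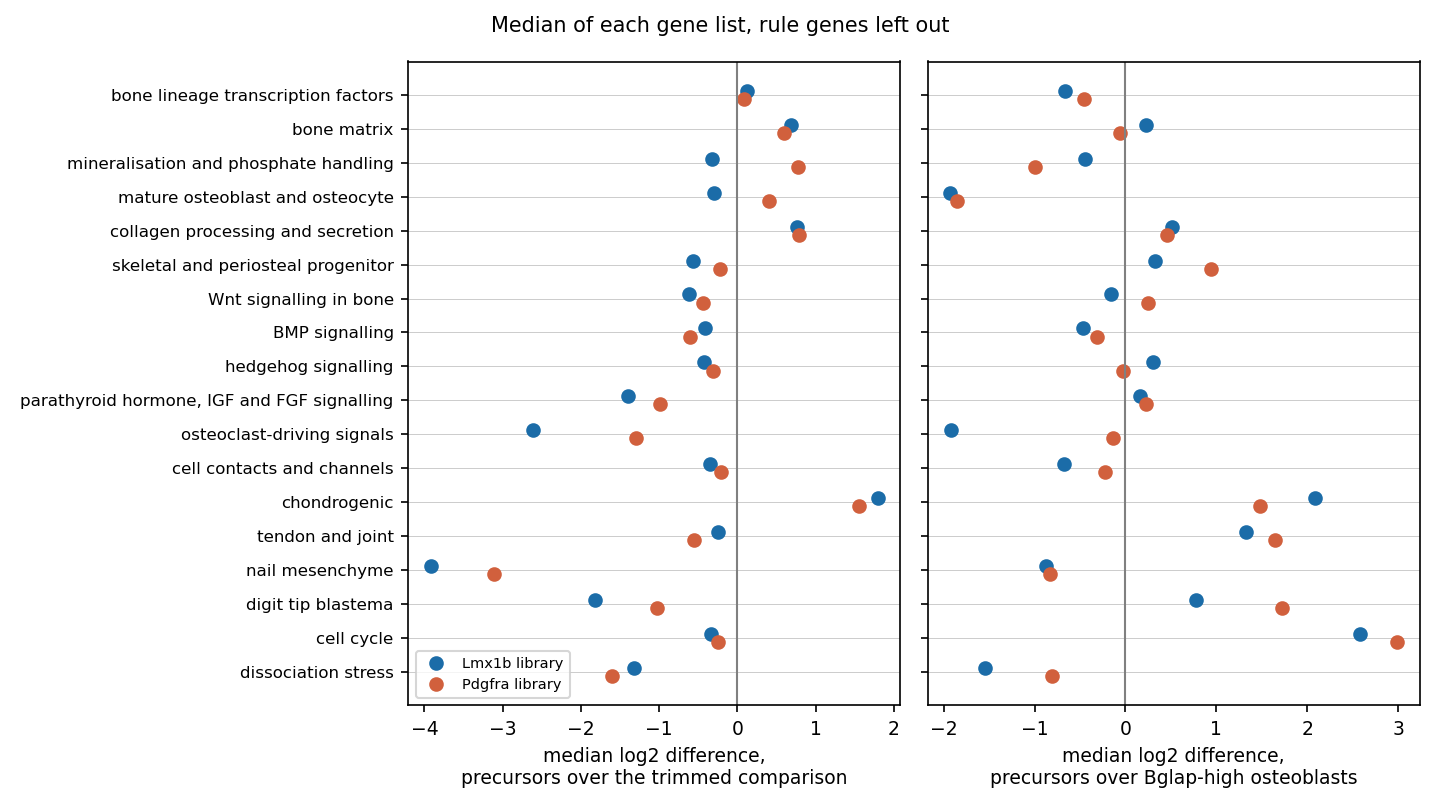
Points give the median log2 difference of each gene list, without the genes named in the rule, for members against the trimmed comparison and against Bglap-high osteoblasts in each library. The chondrogenic list lies right of 0 in every panel, and the mature osteoblast list lies far left of 0 against Bglap-high osteoblasts.

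Set against Bglap-high osteoblasts, members had more RNA of Tnn, Tgfbi and Inhba and less of Dmp1, Hey1 and Dlx3. In the Lmx1b line 533 of 9387 genes (5.68%) were 2-fold higher and 514 (5.48%) lower, and in the Pdgfra line 1088 (11.6%) higher and 409 (4.36%) lower, the latter against only 26 osteoblast barcodes. Among 9021 genes measured in both libraries, 504 were higher in the Lmx1b and 1054 in the Pdgfra line. Of these, 357 were higher in both (70.8% and 33.9%), and 172 genes were lower in both. Tnn (tenascin W), a matrix glycoprotein of bone and tendon, stood at 1465 against 197 CPM in the Lmx1b and 1271 against 203 CPM in the Pdgfra line. Tgfbi, a secreted adhesion protein, stood at 228 against 23.2 CPM and 254 against 25.8 CPM, and Inhba, a subunit of activin, at 137 against 16.3 CPM and 187 against 25.8 CPM. Fam180a was 11.9-fold higher (8.90 to 16.3) in the Lmx1b line and 35.4-fold (9.77 to 293) in the Pdgfra line, where its level in osteoblasts rested on few UMIs.

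Genes of later bone cells were among those lower in members than in Bglap-high osteoblasts. Dmp1, a matrix protein of osteocytes, stood at 18.5 against 380 CPM in the Lmx1b and 32.1 against 448 CPM in the Pdgfra line. The Notch target gene Hey1 stood at 2.67 against 36.4 CPM and 5.35 against 46.8 CPM. The homeobox gene Dlx3 stood at 11.8 against 35.8 CPM and 9.05 against 38.7 CPM. Of 12 bone lineage factors other than Sp7 in the Lmx1b line and 13 in the Pdgfra line, 0 were higher and 5 lower in each. In the mature osteoblast and osteocyte list, the osteocalcin genes of the rule left out, 0 of 8 genes were higher, and 6 and 5 were lower, with medians of -1.93 and -1.85.

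Cell cycle genes were higher in members than in Bglap-high osteoblasts. Of 13 measured genes in the Lmx1b line 9 were higher and 0 lower, and of 12 in the Pdgfra line 10 were higher and 0 lower, with medians of 2.58 and 2.99. The proliferation gene Mki67 stood at 34.1 against 0.903 CPM (37.7-fold, 12.8 to 184) and 22.1 against 1.61 CPM (13.7-fold, 2.42 to 544). A barcode was called cycling with at least 2 UMIs of 6 cell cycle genes. In the Lmx1b line 13.5% of members (10.3 to 17.3%) were called cycling and 7.64% of Bglap-high osteoblasts, and in the Pdgfra line 13.0% (9.27 to 17.5%) and 3.85%. The call depends on depth: after thinning each barcode to 5000 UMIs, 7.07% and 8.76% of members were called, 2 of 121 and 1 of 20 osteoblasts, and 6.17% and 5.85% of all other collagen barcodes. Against other collagen barcodes the cell cycle list had 0 genes 2-fold higher and 0 lower in either library.

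Members were not alike in the 5 selecting genes. Among those with at least 5000 UMIs all 5 were detected in 137 (44.1%) in the Lmx1b and 78 (56.9%) in the Pdgfra line, and a single one in 7 and 2. C1qtnf3 had the most UMIs of the 5 in 55.9% and 61.3% of these members and Ifitm5 in 33.4% and 29.9%. After thinning, Panx3 was detected in 67.6% of members with an Ifitm5 UMI and 23.9% of those without in the Lmx1b line, and in 59.1% and 31.0% in the Pdgfra line. C1qtnf3 went the other way, at 65.9% and 92.0% and at 60.6% and 84.5%. Part of that opposition is set by the threshold on the sum, since a member low in 1 gene must be high in another.

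Members with and without an Ifitm5 UMI were therefore compared, a split chosen after the values had been seen, among members of at least 5000 UMIs. The Lmx1b line had 208 with and 103 without, at median depths of 39580 and 35819 UMIs, and the Pdgfra line 100 with and 37 without, at 48572 and 34342 UMIs. At least 2-fold higher with Ifitm5 were 249 of 9326 genes (2.67%) and 248 of 9552 genes (2.6%). At least 2-fold lower were 703 genes (7.54%) and 243 genes (2.54%). Overlap was counted among 9073 genes measured in both libraries, the genes of the rule left out. Of these, 221 (2.44%) and 205 (2.26%) were higher, and 142 were higher in both (64.3% and 69.3% of the lists). Lower were 636 (7.01%) and 199 (2.19%), with 130 lower in both (20.4% and 65.3%). The split uses the same counts, so these numbers describe it and are no test of it.

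Several mineralisation genes were higher in members with Ifitm5. Ibsp stood at 35694 CPM with and 4241 CPM without Ifitm5 in the Lmx1b line, and at 34126 and 6131 CPM in the Pdgfra line. Smpd3 stood at 563 against 30.1 CPM (18.7-fold, 15.5 to 22.8) and 453 against 21.9 CPM (20.7-fold, 14.6 to 30.3). Spp1 stood at 12046 against 1790 CPM and 12259 against 1859 CPM. Slc13a5 stood at 161 against 4.10 CPM and 102 against 9.57 CPM, and Phex, an endopeptidase of phosphate control, at 55.3 against 1.09 CPM and 43.6 against 3.42 CPM. The Wnt inhibitor gene Dkk1 stood at 58.7 against 0.547 CPM (107-fold, 29.5 to 888) and 67.6 against 2.05 CPM (33.0-fold, 11.2 to 161). Ihh, the hedgehog ligand of growing bone, stood at 32.5 against 3.56 CPM and 26.3 against 2.05 CPM (12.8-fold, 4.30 to 62.9). Of 11 mineralisation genes 6 were higher and 1 lower in the Lmx1b line, and 5 higher and 1 lower in the Pdgfra line. The split was not limited to mineralisation genes. Of the mature osteoblast and osteocyte list outside the rule, 4 of 7 and 3 of 6 genes were higher and 1 lower in each library. Of the chondrogenic list outside the rule, 3 of 9 and 4 of 10 genes were higher and 0 lower. The collagen gene Col11a2 stood at 987 against 80.7 CPM and 635 against 77.2 CPM. Several of the genes that led the members over other collagen barcodes, Smpd3, Slc13a5 and Sgms2 among them, were thus mostly those of the members with Ifitm5.

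Members without Ifitm5 had more RNA of Aspn, of the microfibril genes Fbn2 and Mfap5 and of the receptor genes Lgr5 and Egfr. Aspn, a small proteoglycan of periosteum and tendon, stood at 2359 CPM without and 591 CPM with Ifitm5 in the Lmx1b line, and at 2521 and 1008 CPM in the Pdgfra line. Fbn2, a microfibril protein of growing tissue, stood at 116 against 21.0 CPM and 89.5 against 29.7 CPM, and Mfap5, another microfibril protein, at 351 against 85.3 CPM and 489 against 167 CPM. Lgr5, a receptor for R-spondins, stood at 33.4 against 6.59 CPM and 37.6 against 9.66 CPM, and Egfr, the epidermal growth factor receptor, at 21.1 against 4.88 CPM and 32.1 against 6.62 CPM. The tendon and joint list had 6 lower and 1 higher of 11 genes with Ifitm5 in the Lmx1b line and 4 lower and 1 higher of 10 in the Pdgfra line, its factor Scx standing at 161 CPM without and 63.3 CPM with Ifitm5 and at 172 and 56.0 CPM. The cell cycle list differed between the libraries, 12 of 14 genes being lower with Ifitm5 in the Lmx1b line and 0 of 13 in the Pdgfra line.

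**Figure D5:**
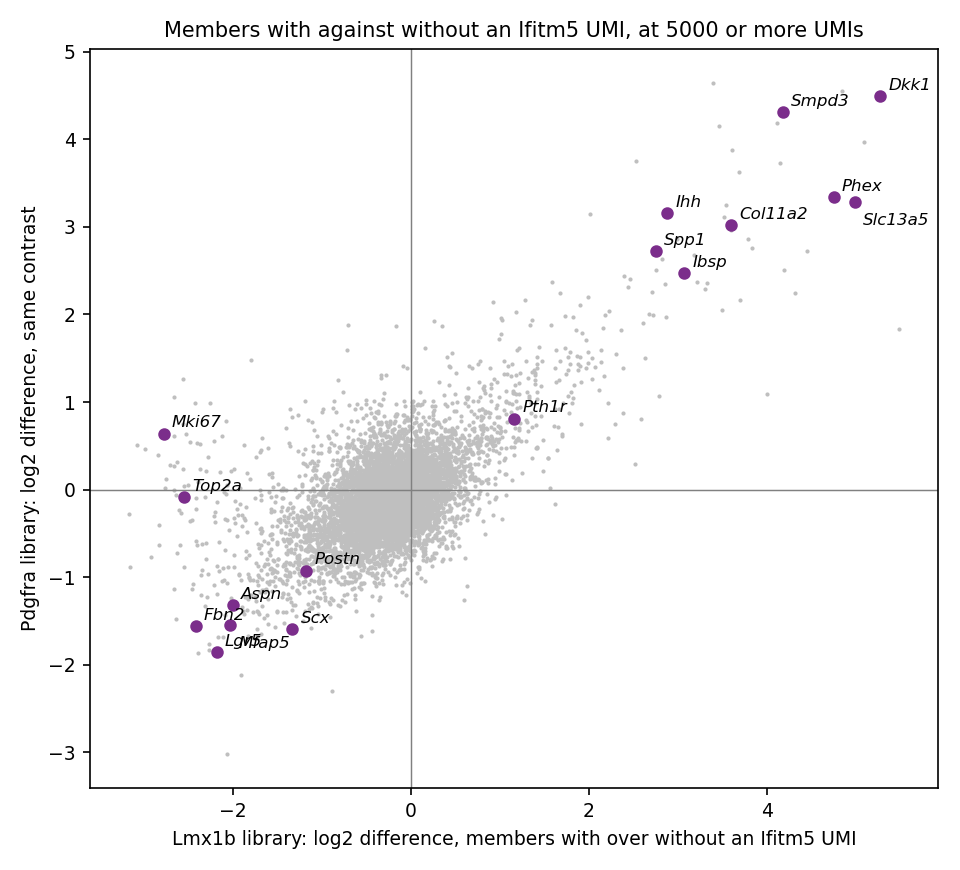
Each point is 1 gene, with the log2 difference of members with over without an Ifitm5 UMI in the Lmx1b line on 1 axis and in the Pdgfra line on the other. Smpd3, Ibsp and Slc13a5 lie high in both libraries and Aspn, Fbn2 and Lgr5 low in both.

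The summed level of the selecting genes gave a related order. Among deep members of the Lmx1b line, Ibsp stood at 12111 CPM at sums of 6 to 10 CP10k (80 members), 22540 CPM at 10 to 20 (99 members) and 35376 CPM above 20 (132 members). In the Pdgfra line the values were 16524, 27648 and 39661 CPM in 37, 60 and 40 members. Smpd3 stood at 106, 263 and 635 CPM over the same ranges in the Lmx1b line and at 125, 305 and 654 CPM in the Pdgfra line. Cspg4, a surface proteoglycan that also marks pericytes, differed less, at 387, 505 and 681 CPM and at 285, 355 and 473 CPM. Aspn went the other way, at 1907, 1243 and 669 CPM in the Lmx1b line and 1740, 1553 and 634 CPM in the Pdgfra line. The bone genes Ibsp and Smpd3 thus followed the summed level in both libraries.

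The tdTomato reporter was read at 1600 CPM or more, a level chosen after its distribution was known, because most barcodes, endothelial ones included, held a tdTomato UMI. In the Lmx1b line 70.2% of members had such a UMI, against 83.7% of endothelial barcodes. At 1600 CPM, 9 of 399 members of the Lmx1b line (2.26%, 1.04 to 4.24%) were labelled, against 4.53% of all other collagen barcodes, 11.3% of the trimmed comparison, 1.91% of Bglap-high osteoblasts and 0.440% of endothelial barcodes. In the Pdgfra line 162 of 277 members (58.5%, 52.4 to 64.3%) were labelled, against 49.8% of all other collagen barcodes, 65.9% of the trimmed comparison, 53.8% of Bglap-high osteoblasts, 31.2% of endothelial and 9.79% of macrophage barcodes. The order of the groups depended on the level chosen. At 800 CPM, 78.3% of members and 72.5% of the trimmed comparison were labelled in the Pdgfra line, and 4.76% of members and 5.72% of endothelial barcodes in the Lmx1b line. Among members of at least 5000 UMIs of the Pdgfra line the share at 1600 CPM was 73.0%, and under 5000 UMIs 44.3%. Lmx1b itself stood at 0.0834 CPM (1 UMI) in members of the Lmx1b line and 2.06 CPM in those of the Pdgfra line. Precursors with the reporter at this level were thus frequent in the Pdgfra line and few in the Lmx1b line, in libraries that also differ in driver and depth.

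Members were also compared between the libraries. Of 9413 genes, 26 (0.276%) were at least 2-fold higher in the Lmx1b line and 133 (1.41%) at least 2-fold higher in the Pdgfra line. With means over barcodes in place of summed UMIs these counts were 265 and 648. Xist, Tsix, Y-linked genes and tdTomato were left out when genes were named from this comparison. The reporter tdTomato stood at 161 CPM in members of the Lmx1b line and 2185 CPM in those of the Pdgfra line. Higher in the Lmx1b line were the keratin gene Krt10 (3.45-fold), the Rosa26 transcript Gt(ROSA)26Sor (2.98-fold), the keratinocyte genes Mt4 (2.58-fold) and Lgals7 (2.11-fold), the BMP modulator gene Bmper (2.41-fold) and Gpc1 (2.11-fold). The epithelial marker list stood at 134 CPM in members of the Lmx1b line and 52.5 CPM in those of the Pdgfra line, 3 of its 5 genes being 2-fold higher, and epithelial markers were carried by 3.26% and 1.44% of members. Higher in the Pdgfra line were Cxcl14 (9.50-fold), Sfrp2 (7.14-fold), Apoe (6.76-fold) and the macrophage gene Lyz2 (5.04-fold). Cxcl14, Sfrp2 and Apoe were also among the genes that other collagen barcodes had in abundance, and members carrying markers of another type were more frequent in the Pdgfra line (25.6% against 13.8%). The part of these other cell types in the library difference was not tested.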

How the data were processed

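Per the file headers, the authors made the deposited UMI counts per gene and barcode with Cell Ranger 4.0.0, and per the labels' protocols against mm10 with tdTomato added. Which barcodes were called as cells before deposit is not given in the sources used here. The matrices had 28001 features, with 66867027 UMIs in the Lmx1b and 49084751 in the Pdgfra line. The members and gene lists were chosen with earlier results of these data known. Counts were summed over the barcodes of each group and given as CPM. Log2 differences used a pseudocount of 1 CPM and genes with a mean of at least 5 CPM, and 2-fold was the call. Intervals of ratios are exact for a pair of Poisson counts, and those of shares are Clopper-Pearson at 95%. UMIs from PCR-amplified 3' libraries cover counting error only. With 1 library per line no test was run.

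Named genes were those at 20 CPM or more and detected in at least 20% of barcodes on the higher side in both libraries, ranked by the smaller difference of both libraries: 25 higher and 15 lower against other collagen barcodes, 10 in each direction against osteoblasts, and 8 between libraries. Xist, Tsix, Y-linked genes and tdTomato were left out of those named between libraries. Genes named from lists, from the split by Ifitm5 and from the check of the name were picked after their values were seen. The 18 program lists and 10 lists of other cell types lacked 1 gene in the files. Scrublet (scanpy 1.11.5) marked 0 barcodes as doublets by its own threshold and so had not worked. Of its 287 (Lmx1b) and 203 (Pdgfra) highest scores, 49 and 65 fell on barcodes past the gene and mitochondrial filters. Among those, 11 and 9 were members, which stayed in. Members made up 14.3% and 11.7% of all barcodes past these filters. Genes whose reads overlap a neighbour or a close copy, such as Bglap, Bglap2 and Bglap3, may share counts. The summing and the ratio code were tested on simulated data. Alternatives were other barcode filters, thresholds, pseudocounts, gene minimums, means over barcodes, thinning and the trimmed comparison.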

Additional observations from a re-analysis of the deposited data

Results flagged for a closer look

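A few list medians had opposite signs in the 2 libraries, and the difference was not tested. For members against other collagen barcodes, the mineralisation and phosphate handling list had a median log2 difference of -0.38 in the Lmx1b and 0.50 in the Pdgfra line. The mature osteoblast and osteocyte list had -0.70 and 0.20 with the osteocalcin genes that the rule limits. Without those genes it had -0.51 and 0.37. Bglap-high osteoblasts made up 10.3% of the comparison barcodes in the Lmx1b and 1.65% in the Pdgfra line, and without members carrying markers of another type the mineralisation median of the Pdgfra line was -0.16. Their part in the difference was not tested. The cell cycle list had 0.044 in the Lmx1b and -0.47 in the Pdgfra line. For members with over without an Ifitm5 UMI, the cell cycle list had -2.34 in the Lmx1b and 0.15 in the Pdgfra line, beside 26.2% and 16.2% of members without Ifitm5 called cycling and 10.6% and 24.0% of those with it. These cycling calls depend on depth and were not thinned. Members with Ifitm5 had medians of 39580 UMIs against 35819 without it in the Lmx1b line, and 48572 against 34342 in the Pdgfra line.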

How the results depend on the processing

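No paired analysis was possible because each line had 1 library, and no library could be left out. Of 1040 log2 differences of single named genes under the alternatives, 869 stayed within a fixed margin of the main value. Another 164 moved beyond that margin, and 7, all of genes called 2-fold, changed sign. Counting error did not enter the margin. The share of members among collagen barcodes in the Lmx1b line was 18.7% with a filter of 200 genes and 25% mitochondrial UMIs, 26.5% with 1000 genes and 5%, 12.8% with a marker sum of 12 CP10k and 18.0% with at least 3 selecting UMIs. In the Pdgfra line it was 13.1% with 1000 genes and 5%, 7.65% with 12 CP10k and 9.59% with 3 UMIs. The cycling share was 8.75% and 7.40% with the looser filter and 22.8% and 18.2% with the stricter one in the Lmx1b and Pdgfra libraries, 7.07% and 8.76% after thinning, and in the Pdgfra line 18.0% with 3 UMIs and 21.9% among members of at least 5000 UMIs. The labelled share of the Pdgfra line was 49.0% and 70.5% with the looser and stricter filters, 65.7% with 3 UMIs and 73.0% at 5000 UMIs. At 800 CPM it was 4.76% (Lmx1b) and 78.3% (Pdgfra), and at 3200 CPM 0.501% and 16.2%. The alternatives of members of at least 5000 UMIs and of members without other markers were chosen after seeing the data.

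Genes 2-fold higher than in other collagen barcodes numbered 237 and 332 by means over barcodes, 296 and 366 against the trimmed comparison and 287 and 355 after thinning (Lmx1b and Pdgfra), and in the Pdgfra line 98 with a pseudocount of 5 and 95 with a minimum of 20 CPM. Lower genes numbered 410 and 338 with the minimum of 20, and 1838 in the Pdgfra line after thinning. By means over barcodes, 2064 genes were higher and 725 lower than in osteoblasts of the Pdgfra line, and 265 higher and 648 lower in the Lmx1b than in the Pdgfra line. The trimmed comparison reversed Gm13889 (0.56 and 0.99), Myh11 (1.82 and 2.19) and Rgs5 (1.83 and 2.69) in both libraries and Lmod1 (0.59) in the Pdgfra line.

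The list medians of this paragraph keep in the genes of the rule, which the Results leave out, so the limits of the rule enter them. The main chondrogenic median was -1.16 (Lmx1b) and -0.73 (Pdgfra) with these genes and -0.011 and -0.095 without them. Without them it was 1.79 and 1.56 against the trimmed comparison. With that limit, list medians moved as follows in the Lmx1b line. With 1000 genes and 5%, they were -1.32 for mature osteoblast, -2.10 for osteoclast-driving and -1.79 for chondrogenic genes. With a sum of 12 CP10k, mature osteoblast was -1.40. Against the trimmed comparison, chondrogenic turned to 1.87, nail was -3.92 and blastema -1.61. Thinning gave chondrogenic -0.45, and means over barcodes turned mineralisation to 0.29. A pseudocount of 5 gave osteoclast-driving -1.97 and nail -2.39. A minimum of 20 CPM gave osteoclast-driving -1.45, nail -2.43, parathyroid hormone, IGF and FGF -0.21 and contacts 0.68, and turned mineralisation to 0.14. In the Pdgfra line, 1000 genes and 5% turned mineralisation to -0.10 and gave mature osteoblast -1.13, parathyroid hormone, IGF and FGF -0.53, chondrogenic -2.19, nail -1.42 and stress -2.80. A Bglap limit of 10 CP10k turned mineralisation to -0.15 and gave mature osteoblast -0.56. Members without other markers turned mineralisation to -0.16 and gave mature osteoblast -0.75 and osteoclast-driving -1.95. Means over barcodes gave nail -1.14 and stress -1.07 and turned contacts to 0.076. The trimmed comparison turned chondrogenic to 1.92 and contacts to 0.15 and gave nail -3.11 and tendon -0.56. Thinning gave nail -3.36 and osteoclast-driving -2.11, and the minimum of 20 turned contacts to 0.61 and gave parathyroid hormone, IGF and FGF -0.53. The cause of each was not tested. Shallow members limit shares more than summed levels, since 1 UMI can make a barcode of under 1667 UMIs a member.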
